A study of Homo sapiens with 15 samples.

Results

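The regions described here carried an ATAC-seq peak in every one of 5 Lgk974 libraries, 3 from 24 h and 2 from 48 h, and in none of 7 DMSO libraries, 3 from 24 h and 4 from 48 h. There were 414 such regions among 222814 union regions, or 0.186% of them. ATAC-seq uses a transposase that cuts and tags open DNA, so that a peak marks chromatin the enzyme could reach. Peaks of all 15 deposited lists were merged where they shared at least 1 bp on chromosomes 1 to 22 and X. The libraries were DNA of HPAF-II, an established human pancreatic adenocarcinoma line, given 1 µM Lgk974 or the solvent DMSO for 24 h or 48 h. They comprised 4 Lgk974 24 h, 3 Lgk974 48 h, 4 DMSO 24 h and 4 DMSO 48 h libraries, of which Lgk974 24 h replicate 3, Lgk974 48 h replicate 3 and DMSO 24 h replicate 3 did not enter the choice. All groups share 1 cell line, both Lgk974 groups had the same dose, and the labels do not say whether replicates were separate cultures. The presence and absence of peaks in the 12 libraries chose the regions, so that pattern is a description and was not tested.

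Lgk974 inhibits porcupine, an enzyme of the endoplasmic reticulum that attaches a lipid to WNT proteins and is needed for their secretion. Without secreted WNT, beta-catenin is degraded and TCF and LEF factors lose their co-activator at target genes. HPAF-II cells lack working RNF43, a ubiquitin ligase that removes WNT receptors, and depend on their own WNT ligands. Accessible sites away from gene starts often are enhancers, short stretches bound by transcription factors. The comparison asks which sites had a peak in cells given the porcupine inhibitor and none in solvent-treated cells. These libraries do not measure WNT secretion, and a site without a peak may still be open below the threshold of its list.

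At least 5 of the 414 regions reached into the 250 bases before a gene start in the RefSeq promoter table. That table gives some genes starts that lie inside them. A full count over all chromosomes is not given here. The stretches of these 5 are shown because they are promoter sequence, of the kind supplied, that gained regions covered. They come from RefSeq (build GRCh38.p14, the assembly of hg38), run 5′ to 3′ on the strand of the gene, and end at or before the last base ahead of the start. Capitals mark a match to the FOX motif TGTTTAC on the opposite strand. The first stretch lies before a start inside PLXNB2, the gene of a semaphorin receptor, on the minus strand of chr22:50301753-50301919.
PLXNB2: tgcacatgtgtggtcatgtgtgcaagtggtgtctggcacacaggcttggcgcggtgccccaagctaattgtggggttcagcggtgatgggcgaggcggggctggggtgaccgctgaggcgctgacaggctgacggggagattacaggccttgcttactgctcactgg
The second lies before a start inside CCDC33, on the plus strand of chr15:74236076-74236325.
CCDC33: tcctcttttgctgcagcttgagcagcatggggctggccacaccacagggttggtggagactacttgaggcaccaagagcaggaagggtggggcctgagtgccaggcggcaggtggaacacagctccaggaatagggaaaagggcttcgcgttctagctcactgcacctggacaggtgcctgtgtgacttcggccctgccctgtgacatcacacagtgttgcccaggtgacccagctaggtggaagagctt
The third lies before a start inside CDKL1, the gene of a cyclin-dependent kinase-like protein, on the minus strand of chr14:50363955-50364196.
CDKL1: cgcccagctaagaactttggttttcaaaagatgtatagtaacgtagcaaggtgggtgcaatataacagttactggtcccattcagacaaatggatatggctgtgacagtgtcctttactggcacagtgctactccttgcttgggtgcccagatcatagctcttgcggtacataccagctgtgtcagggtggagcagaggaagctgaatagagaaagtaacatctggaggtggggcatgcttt
The other two lie before non-coding RNA genes, LINC02040 on the plus strand of chr3:65174689-65174938 and LOC105373465 on the minus strand of chr2:20424946-20425162.
LINC02040: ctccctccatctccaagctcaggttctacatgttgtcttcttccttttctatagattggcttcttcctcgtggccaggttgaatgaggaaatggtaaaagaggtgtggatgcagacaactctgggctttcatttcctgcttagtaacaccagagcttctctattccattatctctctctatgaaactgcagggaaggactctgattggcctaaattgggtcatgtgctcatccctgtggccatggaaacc
LOC105373465: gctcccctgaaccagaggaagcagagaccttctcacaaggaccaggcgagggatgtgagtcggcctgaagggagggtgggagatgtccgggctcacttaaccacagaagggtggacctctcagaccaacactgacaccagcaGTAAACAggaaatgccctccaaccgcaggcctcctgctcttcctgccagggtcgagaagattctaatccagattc
PLXNB2 was chosen by the naming rule, and the other 4 because they also covered supplied promoter sequence, after their values were seen. Both strands were searched for AP-1 (TGANTCA), TCF and LEF (CTTTGAT and CTTTGAA), KLF and SP (GGGCGGG), ETS (CCGGAAG), HNF4 (CAAAGTC) and FOX (TGTTTAC). The single match was FOX before LOC105373465, 75 bases ahead of the start, a motif held by 2.98% of 34961 promoters in 250 bases. The AP-1 motif was in 6.54% of those promoters, CTTTGAT in 2.27%, CTTTGAA in 3.81%, GGGCGGG in 31.6%, CCGGAAG in 8.52% and CAAAGTC in 2.90%. The GC content was 62.3% before PLXNB2, 59.6% before CCDC33, 57.1% before LOC105373465, 47.5% before CDKL1 and 46.4% before LINC02040, against a median of 58.4% over all promoters. The CCDC33 region had percentiles, as explained below, of 40.1, 19.7, 57.1 and 26.0 in Lgk974 24 h replicates 1, 2, 4 and 3 and 25.5, 41.3 and 63.8 in Lgk974 48 h replicates 1, 2 and 3, and also a peak in DMSO 24 h replicate 3. The CDKL1 region ran from 3.88 to 53.0 in the 5 choosing libraries, with a peak in DMSO 24 h replicate 3, and the LINC02040 and LOC105373465 regions from 11.6 to 41.3 and from 14.4 to 64.4, with no peak in the 3 libraries outside the choice. None of the 414 regions overlapped any of 1562 miRNA hairpins. The overlap of all regions with hairpins is not given, so nothing is read from this.

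The lists differed in length, and the smallest −log10 q in a list was 2.06 to 2.49. The 5 Lgk974 lists that chose the regions held 95210 to 122834 peaks, and the 7 DMSO lists 76756 to 106105. The means were 103629 ± 11076 (SD, n = 5) with Lgk974 and 93691 ± 11710 (SD, n = 7) with DMSO. Each of the 5 Lgk974 lists was longer than the DMSO mean, while the ranges overlapped. The difference averaged over the times was 11200 peaks (two-sided exact permutation test within time, p = 0.143, 300 assignments). This difference was not set apart from the spread between libraries by the test. It was 1587 peaks at 24 h and 20814 at 48 h, and its part in the counts was not tested; equal lists are given below. Of the 3 libraries outside the choice, the Lgk974 lists were the shortest, with 53610 peaks at 24 h and 57708 at 48 h, and the DMSO list the longest, with 127886. The ends of 11 of 11 epithelial marker genes, such as EPCAM and KRT8, were called in all 15 libraries. Ends of COL3A1 and LUM, 2 of 4 fibroblast markers, and of PECAM1 and TIE1, 2 of 3 endothelial markers, were called in none. The remaining fibroblast and endothelial markers were called in part of the libraries, the fibroblast ones with both treatments. Of 5 blood cell markers, CD3E, SPI1 and CD68 were called in all 15 libraries, 1 was called in none and the remaining one in part of them. An accessible end of a gene does not show that the gene is transcribed, and the end may belong to a neighbouring gene.

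The mirror pattern, no peak in the 5 Lgk974 libraries and one in each of the 7 DMSO libraries, held at 125 regions, or 0.0561% of all. It asks for 7 peaks where the gained pattern asks for 5, so the counts of 414 and 125 are not a like comparison. Regions with peaks in no Lgk974 and 5 DMSO libraries, the same number of peaks, numbered 306. Any 5 of the 7 DMSO libraries could hold those peaks and the rest had to lack one, so this count is not a like comparison either. Of all regions with peaks in exactly 5 of the 12 libraries, 5873 in number, the gained regions were 414. Just outside the rule, 508 regions had a peak in all 5 Lgk974 libraries and in 1 DMSO library. That single DMSO peak lay in DMSO 48 h replicate 2 for 145 regions, DMSO 24 h replicate 1 for 133 and replicate 2 for 111, the longest of the 7 lists, and in DMSO 24 h replicate 4, the shortest, for 17. A further 640 regions had no DMSO peak and lacked 1 Lgk974 peak. The missing library was Lgk974 24 h replicate 4 for 186, replicate 1 for 178 and replicate 2 for 157, and Lgk974 48 h replicate 1 for 92 and replicate 2 for 27.

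**Figure D1:**
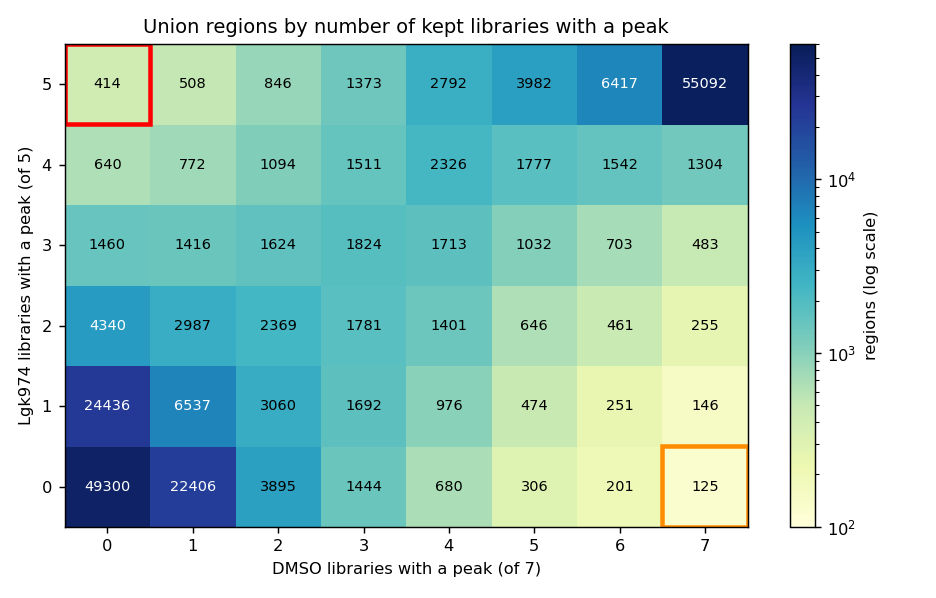
Number of union regions (numbers and colour, log scale) by how many of 5 Lgk974 libraries (vertical) and 7 DMSO libraries (horizontal) had a peak. The 414 gained regions are boxed in red and the 125 mirror regions in orange; 55092 regions had a peak in all 12 libraries.

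Peaks at the gained regions were mostly weak within their own lists. For each peak the percentile is the share of peaks in the same list with a lower −log10 q, as the authors' peak caller gave it. The median percentile over the 414 regions was 21.5, 24.9 and 28.5 in Lgk974 24 h replicates 1, 2 and 4, and 30.1 and 43.4 in Lgk974 48 h replicates 1 and 2. In each of the 5 libraries the median peak therefore ranked below the middle of its list. In Lgk974 48 h replicate 2, which has the longest of these lists, 137 of the 414 peaks lay at or above percentile 50, and in Lgk974 24 h replicate 1, which has the shortest, 19 did. Ranks from lists of different length show no change between times. The median deposited fold over background of these peaks was 3.28 to 4.46 in the 5 libraries, where the medians of the whole lists were 4.32 to 5.13. Other regions with peaks in exactly 5 of the 12 libraries had lower median percentiles in the same Lgk974 libraries, from 12.7 to 26.1.

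The weakest of the 5 peaks of a region shows how near it lay to not being called. This lowest percentile had a median of 11.9 over the 414 regions, with quartiles of 5.52 and 20.2, and was under 5 at 81 regions (19.6%). The regions with 1 DMSO peak, just outside the rule, also had a median of 11.9. At 7 of the 414 regions all 5 peaks lay at or above percentile 50. Across regions, percentiles in any pair of the 5 libraries had a Spearman correlation of 0.23 to 0.41 over 414 regions, a description only, since the libraries share cells and the regions share their choice. The summits of the 5 peaks of a region spread over a median of 119 bp, against 135 bp at the other regions with peaks in 5 of the 12 libraries.

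**Figure D2:**
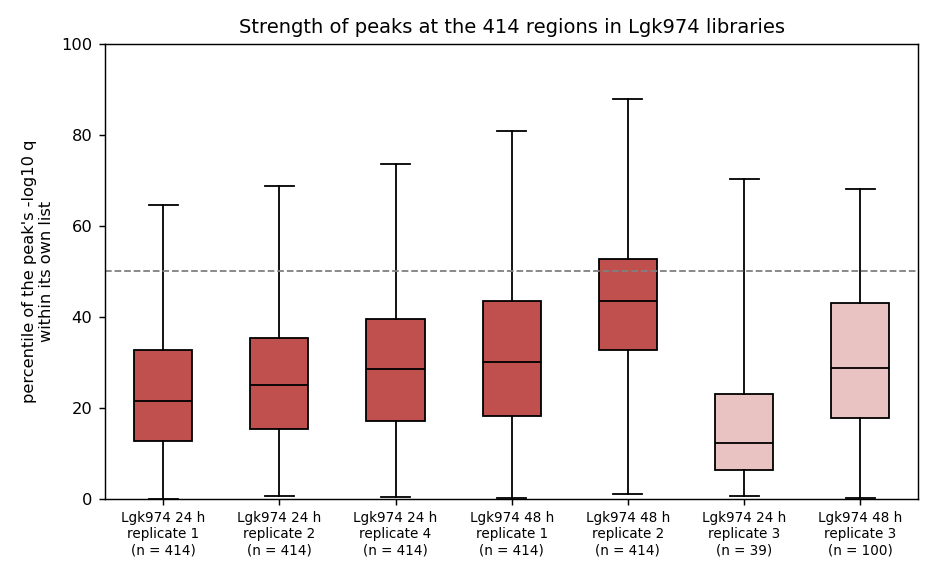
Percentile of the peak's −log10 q within its own list (vertical axis) at the gained regions in the 5 Lgk974 libraries that chose them (dark) and in the 2 that did not (light, regions with a peak only). Boxes are quartiles with the median, whiskers reach the lowest and highest value, and the dashed line is percentile 50; all 7 medians lie below it.

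When each list was limited to its 76756 most significant peaks, the length of the shortest of the 12, 84 of the 414 regions still had a peak in all 5 Lgk974 libraries. Of the rest, 85 kept 4 Lgk974 peaks, 100 kept 3, 82 kept 2, 43 kept 1 and 20 kept none. Regions rebuilt from these equal lists showed the gained pattern at 312 places, of which 84 were among the 414, and the mirror pattern at 266.

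The 3 libraries outside the choice give a reading of the 414 regions that the rule did not use. Lgk974 48 h replicate 3 had a peak at 100 of the 414 regions (24.2%, 95% exact binomial interval 20.1 to 28.6), beside 24.5% of all regions. It had one at 3.74% of the other regions with peaks in 5 of the 12 libraries, and at 1.63% of those with peaks in no Lgk974 and 5 DMSO libraries. Lgk974 24 h replicate 3 had a peak at 39 (9.42%, interval 6.78 to 12.7), beside 22.8% of all regions, with 2.53% and 0.654% in the same comparison sets. DMSO 24 h replicate 3 had a peak at 90 (21.7%, interval 17.9 to 26.0), beside 54.6% of all regions, with 26.5% and 10.8% in those sets. The share of all regions includes those open in every library, so the sets with as many peaks are closer in number of peaks. They were not matched for strength. In the 5 choosing Lgk974 libraries median percentiles were 21.5 to 43.4 at gained regions and 12.7 to 26.1 at the other regions with 5 peaks. The set with 5 DMSO peaks was also chosen for having no Lgk974 peak. With equal lists the shares among the 312 regions were 24.4% in Lgk974 24 h replicate 3, 38.5% in Lgk974 48 h replicate 3 and 16.0% in DMSO 24 h replicate 3. The limit of 76756 peaks left those Lgk974 lists whole, at 53610 and 57708 peaks, and cut the DMSO list from 127886. Shares of other regions at this setting are not given, so these values are not a like comparison of the treatments. Intervals cover counting error over regions only, and 2 Lgk974 libraries against 1 DMSO library allow no useful test.

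Both Lgk974 libraries outside the choice had a peak at 25 of the 414 regions (6.04%), beside 18.4% of all regions and 0.147% of the other regions with peaks in 5 of the 12. At least 1 of them had a peak at 114 regions (27.5%), beside 28.9% of all regions and 6.12% in that set. None of the 3 libraries had a peak at 232 of the 414 (56.0%), beside 37.6% of all regions and 69.1% of the other regions with peaks in 5 of the 12. The 100 peaks in Lgk974 48 h replicate 3 followed the strength of the region in the other libraries. Among the 104 regions with the highest lowest percentiles, 20.2 to 55.3, this library had a peak at 46 (44.2%), and among the 104 weakest at 9 (8.65%). In the 2 classes between, the share was 18.4% in the weaker and 25.2% in the stronger. Lgk974 24 h replicate 3 had a peak at 6.73%, 8.74%, 5.83% and 16.3% of the classes from weakest to strongest, so that only the strongest stood above the rest. DMSO 24 h replicate 3 had one at 22.1%, 18.4%, 25.2% and 21.2% of the same classes.

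**Figure D3:**
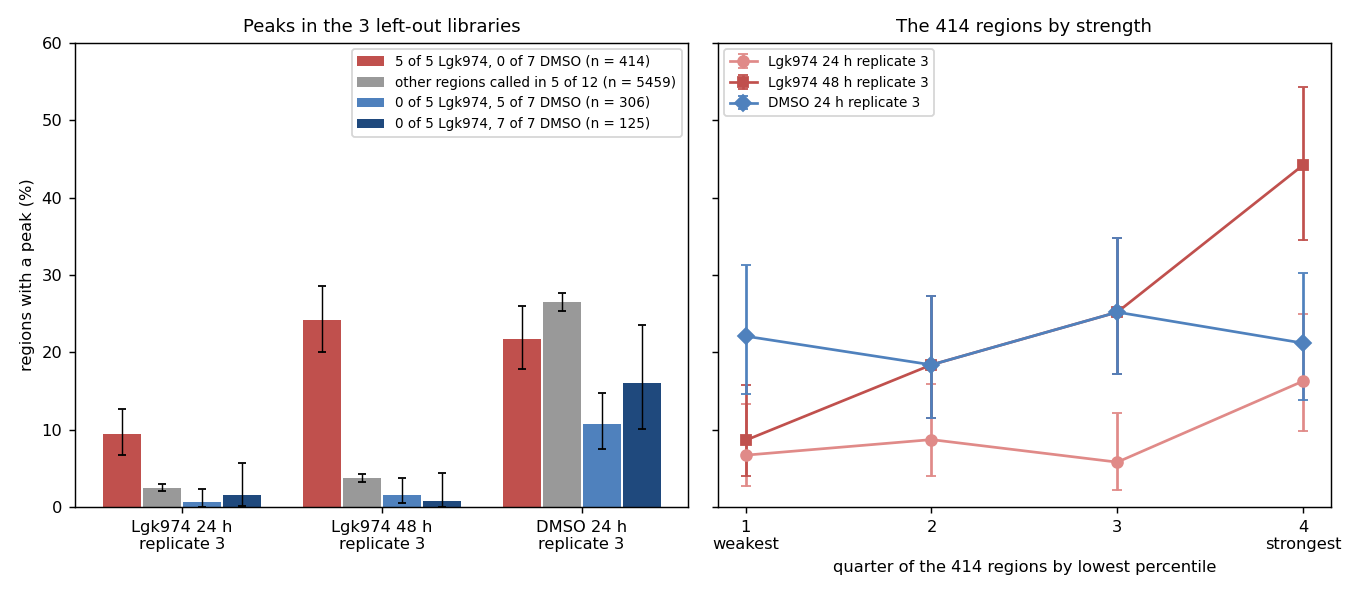
Share of regions with a peak (vertical axis, %) in the 3 libraries that did not choose the regions, for gained regions and 3 comparison sets (left) and for the gained regions in 4 classes of strength (right). Bars and lines carry 95% exact binomial intervals over regions; Lgk974 48 h replicate 3 had a peak at 44.2% of the strongest class and 8.65% of the weakest.

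Of the 414 regions, 20 (4.83%) had peaks in both Lgk974 libraries outside the choice and none in DMSO 24 h replicate 3, a pattern of these 3 libraries that 2.11% of all regions showed. They thus separated all 7 Lgk974 from all 8 DMSO libraries.

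PRKCA, SIK3 and DAPK2 each held 1 of the 20. The region with the highest lowest percentile lay inside PRKCA, which encodes protein kinase C alpha (chromosome 17, 66547150 to 66547940). Its percentiles were 56.4, 59.9, 55.3 and 41.4 in Lgk974 24 h replicates 1, 2, 4 and 3, and 80.9, 84.0 and 53.1 in Lgk974 48 h replicates 1, 2 and 3. The PRKCA peak had a deposited fold of 4.67 to 9.30 over the 7 libraries, and no DMSO library had a peak. A region at an end of SIK3, the gene of a salt-inducible kinase, had percentiles of 55.9, 68.4, 67.1 and 11.8 at 24 h in the same order of replicates, and 47.4, 71.0 and 49.8 at 48 h. The weak value among them is that of Lgk974 24 h replicate 3, the shortest list. DAPK2, the gene of a death-associated kinase, held a region (chromosome 15, 63939599 to 63940210) with percentiles of 4.03 to 74.9 over the 7 libraries.

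Another of the 20 was in PLB1. This gene, which encodes a phospholipase of the intestinal brush border, held a region with percentiles of 50.2, 51.7, 53.4 and 42.5 in Lgk974 24 h replicates 1, 2, 4 and 3, and 66.7, 73.6 and 68.1 in Lgk974 48 h replicates 1, 2 and 3. It was thus above the middle of the list in 6 of the 7 libraries. ST6GALNAC4, the gene of a sialyltransferase that caps O-glycans, held a weaker region with percentiles of 11.7 to 46.6 in the 5 choosing libraries. The region in HID1, which encodes a protein of secretory granule formation, ran from 26.5 to 46.8 in those 5 libraries, and that near ERGIC1, which encodes a protein cycling between endoplasmic reticulum and Golgi, from 11.7 to 25.8. The PLXNB2 region, whose promoter end is printed above, had percentiles of 36.2, 29.1, 44.0 and 12.6 at 24 h in the order of replicates 1, 2, 4 and 3, and 8.25, 23.7 and 49.8 at 48 h.

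Several of the strong regions lay far from any protein-coding gene end. One inside LUZP2 (chromosome 11, 24861500 to 24862147) lay 220491 bp from an end of the gene. Its percentiles were 50.3, 68.7, 67.8 and 70.3 in Lgk974 24 h replicates 1, 2, 4 and 3, and 80.3, 87.8 and 59.8 in Lgk974 48 h replicates 1, 2 and 3. The nearest peak of the 7 DMSO libraries was 32202 bp away. A region 173848 bp from TBC1D1, the gene of a Rab GTPase-activating protein, had percentiles of 48.6 to 68.2 (chromosome 4, 38313021 to 38313777), and lay 29 bp from a region open in all 15 libraries. One 79194 bp from CCDC112 (chromosome 5, 115375848 to 115376342) had 26.0 to 73.5. A further 8 of the 20 lay nearest to DNAH5, MIER3, COL26A1, ZRANB1, SLC38A2, RBMS2, ENTREP2 and SPINT3. The lowest percentile over the 5 choosing libraries among them ran from 2.08 near RBMS2 to 29.7 in ZRANB1, the gene of a deubiquitinating enzyme.

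The 12 regions with the highest lowest percentiles included PRKCA, CCDC112, TBC1D1, LUZP2, PLB1 and SIK3 of these 20. Of the 12, Lgk974 48 h replicate 3 had a peak at 11, Lgk974 24 h replicate 3 at 10 and DMSO 24 h replicate 3 at 3. Those 3 were in RAB37, the gene of a small GTPase of secretory vesicles, in CDK6, which encodes a G1 cyclin-dependent kinase, and near FAM9C. The RAB37 region (chromosome 17, 74730266 to 74731137) had percentiles of 64.6, 53.5, 69.0 and 7.46 in Lgk974 24 h replicates 1, 2, 4 and 3, and 77.7, 73.6 and 59.8 in Lgk974 48 h replicates 1, 2 and 3. CDK6 (chromosome 7, 92664166 to 92664811) had 46.3, 49.7, 42.9 and 16.6 at 24 h and 60.3, 66.0 and 25.3 at 48 h in the same order. Thus 2 of the strongest gained regions with peaks in all 7 Lgk974 libraries also had a peak in 1 of 8 DMSO libraries. A region 12521 bp from ZFP36L1, which encodes a protein that speeds the decay of AU-rich mRNAs, was absent from Lgk974 24 h replicate 3, and one inside ADAMTS9, the gene of a secreted metalloprotease, from Lgk974 48 h replicate 3.

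**Figure D4:**
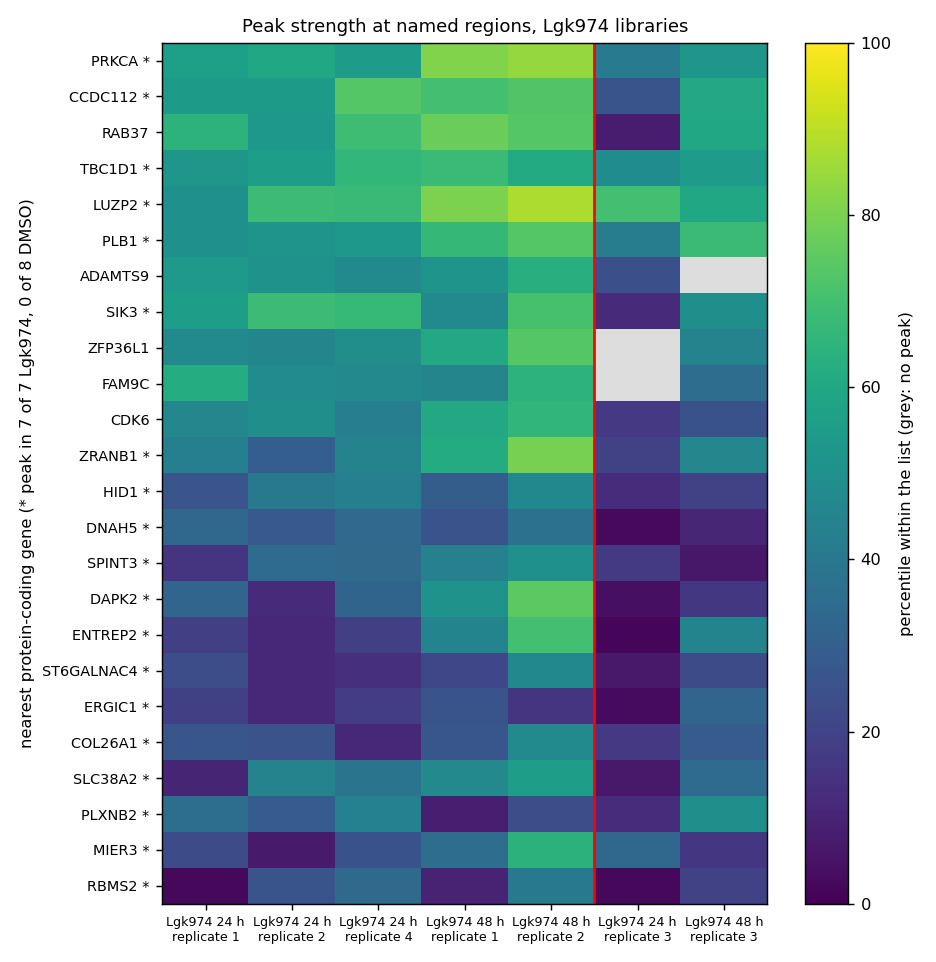
Percentile of the peak within its own list (colour) in 7 Lgk974 libraries at regions with peaks in 7 of 7 Lgk974 and 0 of 8 DMSO libraries (asterisk) and at those with the highest lowest percentile, with 1 region not shown. Rows run from the highest to the lowest of the 5 choosing libraries' minimum, the 2 columns right of the red line did not choose the regions, and grey marks no peak; PRKCA is at the top and RBMS2 at the bottom.

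By position, 43 of the 414 regions (10.4%) lay at most 1 kb from a start or end of any gene, coding or not, 246 (59.4%) elsewhere inside genes and 125 (30.2%) between genes. Over all 222814 regions the shares were 16.1%, 52.0% and 31.9%, and over the other regions with peaks in 5 of the 12 libraries 12.4%, 56.5% and 31.1%. From gene starts alone, 11 of the 414 (2.66%) lay within 1 kb, against 5.50% of the other regions with peaks in 5 of the 12 and 8.96% of all regions. Within 1 to 10 kb of a start lay 24.2%, against 19.0% and 16.5%. The median distance to a gene start was 28.6 kb, against 30.4 kb in both other sets. These shares are descriptions with no test.

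**Figure D5:**
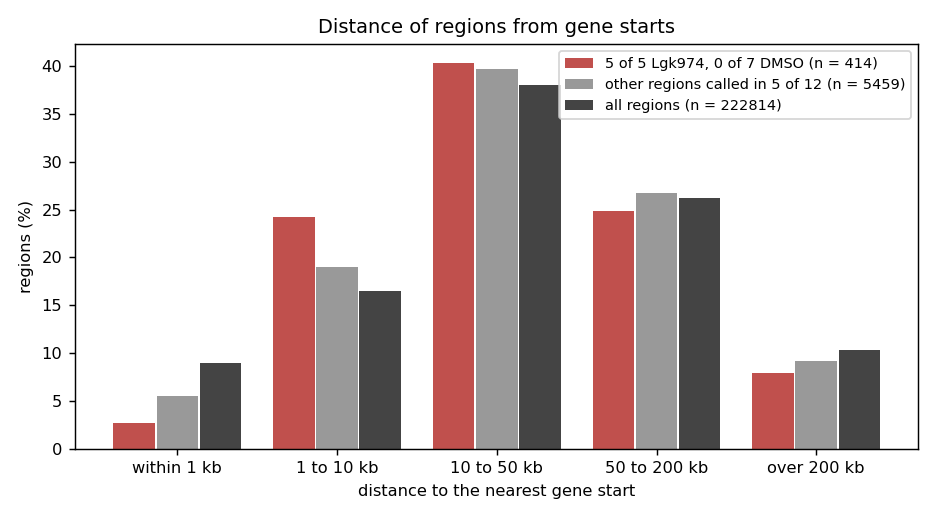
Share of regions (vertical axis, %) by distance to the nearest gene start for the gained regions, the other regions with peaks in 5 of the 12 libraries, and all regions. Of the gained regions 2.66% lay within 1 kb of a start and 40.3% at 10 to 50 kb.

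The gained regions also lay near sites that were open in every library. The nearest region with a peak in all 15 libraries was a median of 7.25 kb away, against 20.0 kb for the other regions with peaks in 5 of the 12, 22.3 kb for those with peaks in no Lgk974 and 5 DMSO libraries, and 11.0 kb for the 125 mirror regions. Within 1 kb of such a site lay 50 of the 414 (12.1%), against 5.81% of the other regions with peaks in 5 of the 12. A peak of at least 1 of the 7 DMSO libraries lay within 1 kb of 98 of the 414 without touching them, and the median distance to one was 2.36 kb. Distances to DMSO peaks are not given for other regions, so these values are not read as a trait of the gained ones. The regions had a median width of 444 bp, from 260 to 1061, against 423 bp for the other regions with peaks in 5 of the 12 and 535 bp for the mirror regions.

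Of the 23 chromosomes, 17 held the largest share, with 26 gained regions among 7131 (0.365%), followed by 15 with 17 among 5543 (0.307%). The lowest shares were on 7, with 15 among 13078 (0.115%), and on 19, with 7 among 5912 (0.118%). Chromosome 17 also held 11 of the 125 mirror regions, where 15 held 5, 7 held 9 and 19 held 3. Other regions with peaks in 5 of the 12 numbered 191, 145, 287 and 141 on 17, 15, 7 and 19. The high share of 17 is therefore not read as particular to the gained regions, and none of these differences was tested. Gained regions were scattered, with 400 protein-coding genes nearest to the 414. Groups within 100 kb were 13 pairs, and no group was larger. The 5 pairs with the shortest span, a tie-break chosen after the values were seen, lay inside AFF3 (3157 bp), inside RAB37 (8467 bp), near CCDC112 (20745 bp), at ZNFX1 (22400 bp) and inside MYLK (22909 bp). AFF3 encodes a subunit of a transcription elongation complex, ZNFX1 a sensor of double-stranded RNA and MYLK myosin light chain kinase. In the AFF3 pair the lowest percentiles were 6.86 and 7.09, and in the RAB37 pair 53.5 and 0.397. LPP was the nearest gene of 3 gained regions, more than any other gene.

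At the ends of protein-coding genes, within 1 kb, 16 of the 414 regions (3.86%) were found. The share of all regions at such ends is not given here, so nothing is read from this count. The 15 nearest are named here. Those with a gene end inside the region were at SIK3, DCUN1D1, which encodes a neddylation co-factor, COL23A1, which encodes a transmembrane collagen, TMEM245 and CBFA2T3, which encodes a transcriptional co-repressor. The others were at COG8, a Golgi tethering gene, MAP3K7CL, DBNDD2, TMEM63A, LOC110384692, C17orf99, RNF157, IFITM1, BCAS1 and OBSL1. Apart from SIK3, none of the 15 had peaks in all 7 Lgk974 libraries. The lowest percentile of the 15 ran from 0.592 at COL23A1 to 47.4 at SIK3.

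The genes of 15 lists, 460 genes in all, were checked for gained regions within 50 kb. Such regions were 19 of 8644 near these genes (0.220%), beside 0.186% of all regions, and touched 23 genes. None was near the 33 WNT beta-catenin target genes, such as AXIN2 and LGR5, among 646 regions there. None was near the 26 genes of nucleic acid sensing among 356 regions, the 29 that silence endogenous retroviruses among 507, the 34 of Notch, TGF-beta and BMP signalling among 741, or the 20 housekeeping genes among 333. With 0.186% of all regions gained, nothing is read from a count of 0 in lists of this size.

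Lists with gained regions held 1 to 4 of them each. The highest share was that of cell cycle genes, 3 of 498 regions (0.602%), in CDK6, in MCM5, which encodes a subunit of the replicative helicase, and 4186 bp from CDKN1A, the gene of the CDK inhibitor p21. The CDKN1A region had percentiles of 20.2, 16.3 and 7.76 in Lgk974 24 h replicates 1, 2 and 4, with no peak in replicate 3, and 7.97, 59.2 and 29.8 in Lgk974 48 h replicates 1, 2 and 3. The semaphorin list held 4 of 797 (0.502%), in PLXNB2, in SEMA4D and SEMA5A, which encode membrane-bound semaphorins, and near SEMA4B. SEMA4D had 5.04 to 55.0 in the 5 choosing libraries and also a peak in DMSO 24 h replicate 3. Cell junction and keratin genes held 3 of 758 (0.396%), near TJP1, CGN and KRT20. TJP1 and CGN encode tight junction proteins and KRT20 a keratin of gut epithelium.

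Differentiation genes of pancreas and gut held 2 of 611 (0.327%), of which 1 lay 34266 bp from FOXA2, the gene of a forkhead factor of endoderm. The FOXA2 region was weak in Lgk974 24 h replicate 2, at percentile 2.21, and absent from both Lgk974 libraries outside the choice. Interferon-stimulated genes held 2 of 642 (0.312%). Of these, 1 lay 873 bp from IFITM1 and also within 50 kb of IFITM2 and IFITM3, genes of membrane proteins that block virus entry. It had percentiles of 0.816, 25.8 and 27.9 in Lgk974 24 h replicates 1, 2 and 4 and 7.89 and 39.8 in Lgk974 48 h replicates 1 and 2. Lgk974 24 h replicate 3 and Lgk974 48 h replicate 3 lacked it, and DMSO 24 h replicate 3 had a peak.

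Mucin and trefoil genes held 1 of 328 (0.305%), 12761 bp from ZG16B, which encodes a secreted lectin. Mucin glycosylation genes held 2 of 678 (0.295%), in ST6GALNAC4 and near CHST4, and EGF receptor and RAS feedback genes 1 of 548 (0.182%), inside EGF, the gene of a growth factor. WNT ligands and receptors held 1 of 630 (0.159%), inside WNT3A, the gene of a WNT ligand. That region had 21.8, 28.7 and 14.9 in Lgk974 24 h replicates 1, 2 and 4 and 25.3 and 49.4 in Lgk974 48 h replicates 1 and 2, and DMSO 24 h replicate 3 also had a peak there. AP-1, KLF, ETS and RUNX factor genes held 1 of 853 (0.117%), 14310 bp from ATF3, the gene of a stress-induced AP-1 partner. With 1 to 4 regions per list, these shares differ from the background by single regions.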

How the data were processed

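Chromatin accessibility was measured by ATAC-seq in 15 HPAF-II libraries, each with 1 deposited list of peaks in hg38 coordinates. Per the submitters' processing notes, MACS2 (a peak caller), Bowtie2 (an aligner), Trimmomatic, SAMtools, Picard, HOMER, bedtools, DiffBind, DESeq2 and ChIPseeker were used. Their order, versions, settings and any shift of reads for the transposase: not given in the sources used here. The deposited columns hold a score (about 10 times −log10 q), a fold ratio over background, a −log10 p-value and a −log10 q-value, from the authors' peak caller; these ranked peaks within a list only. DESeq2 was not used here, and neither were read counts, so depth is unknown.

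The lists held 1413185 peaks, of which 1138 on other contigs were set aside, and 1 damaged chromosome name was read as chromosome 1. Regions were merged with Python 3.11.15, numpy 2.4.6, pandas 2.3.3 and scipy 1.17.1, and the number was the same with bedtools 2.31.1; figures used matplotlib 3.10.9. The code was tested on simulated lists. Gene positions came from RefSeq (GRCh38.p14, 59098 genes, 19974 protein-coding). Gene starts and promoters came from a RefSeq table of 34961 entries. Regions were named by the nearest protein-coding gene. Named regions were those with peaks in 7 of 7 Lgk974 and 0 of 8 DMSO libraries, the 12 with the highest lowest percentile, up to 15 within 1 kb of a protein-coding gene end, those within 50 kb of listed genes, and the 5 largest groups.

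The regions and lists were chosen with earlier results of these data known. The list-length test permuted labels within time. Alternatives were equal lists, −log10 q of at least 3 or 5, peaks covering at least 50% of a region, windows of 100 bp on either side of summits, merging within 100 bp, a union of the 12 libraries, other sets of libraries, and gene ends within 3 kb or of protein-coding genes alone. No genome sequence was used here. Since no source states separate cultures, p-values measure only differences between libraries, possibly technical. Peak names carry 1 library each, so peaks were taken as called per library. Values of 1 named region and 1 marker gene are not reported here.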

Additional observations from a re-analysis of the deposited data

Results flagged for a closer look

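The list of Lgk974 24 h replicate 3 held 53610 peaks, far from the 95210, 98930 and 98304 of the other 3 libraries of its group. Its gap to the nearest of them was 0.918 of the range of the group, above Dixon's 95% critical value for 4 samples. Of the 3 groups of 4 libraries examined in this way it was the 1 so marked, and chance marks about 1 in 20 groups. This library did not choose the 414 regions and had a peak at 39 of them, at a median percentile of 12.2 in its own list; the part of its list length in that count was not tested.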

How the results depend on the processing

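With any of 7 other settings, namely equal lists, −log10 q of at least 3 or 5 (the second chosen after the data were seen), 50% cover, summit windows, merging within 100 bp and a union of 12 libraries, gained regions numbered 312 to 465, within 1.5 times of 414. Some settings could hardly move the count, since −log10 q of at least 3 dropped 0.0817% to 0.978% of a list. A similar count need not be the same regions: of the 312 with equal lists, 84 were among the 414. They numbered 324 with DMSO 24 h replicate 3 put back, 39 with Lgk974 24 h replicate 3, 100 with Lgk974 48 h replicate 3 and 20 with all 15 libraries. Without 1 library they ran from 431 to 600. The mirror count of 125 was 266 with equal lists, 20 with DMSO 24 h replicate 3 put back and 19 with all 15, and 126 to 256 without 1 library, the highest without DMSO 24 h replicate 4. A library put back adds a condition to either pattern and a library left out removes one. The direction of those changes was therefore set in advance, and only their size is informative.

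The shares of gained regions with a peak in Lgk974 24 h replicate 3, Lgk974 48 h replicate 3 and DMSO 24 h replicate 3 were 24.4%, 38.5% and 16.0% with equal lists, and 6.45%, 19.6% and 17.4% with 50% cover. Of these lists, the equal-list limit shortened only the DMSO one, since both Lgk974 lists were already below it. The causes were not tested. With −log10 q of at least 5 the DMSO share was 16.6%. Gene ends, gene insides and the space between genes held 25.4%, 49.8% and 24.9% with gene ends within 3 kb, and 3.86%, 50.7% and 45.4% with protein-coding genes alone. At these settings no shares of other regions are given for comparison. The mean list length difference turned to -7473.1 peaks over all 15 libraries (exact permutation p = 0.523). With the replicate block it was 6734 peaks over 5 pairs, Lgk974 longer in 3 (exact p = 0.312); the numbers are not stated to pair samples. A region without a peak may be open below the threshold of its list.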
